A study of Mus musculus with 26 samples.

Results

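The experiment described here asked which places in the genome of mouse embryonic stem cells (mESCs) carry less or more K4-K27 reChIP signal when DPPA2 and DPPA4 are missing. It holds 4 of the 26 libraries of the series, the K4-K27 libraries of WT clones 57 and 58 and of Dppa2/4 double knockout (DKO) clones 43 and 53. In a K4-K27 reChIP, MNase-cut chromatin was first precipitated with an antibody to H3K4me3. The eluted nucleosomes were then precipitated with an antibody to H3K27me3, which enriches for fragments that carried both marks. The paper proposes that peaks not found in both orders of the antibodies likely carry signal over from the first precipitation. Of the regions listed for WT K4-K27, 45.3% overlapped a WT region of K27-K4, the reChIP in the reverse order. A K4-K27 region alone is therefore not shown to be bivalent. All 4 clones derive from E14, an established line of mESCs, were grown in serum with LIF and were sequenced in the same batch. Each library is 1 clone, the DKO clones lack both genes, and the WT clones are not matched one by one to the DKO clones. P-values therefore measure the spread between clones of a genotype, with 2 clones in each. An IgG–IgG reChIP was made from WT clone 57 only and gives the background.

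A bivalent region carries H3K4me3, a mark of promoters that are or can be transcribed, together with H3K27me3, the mark placed by Polycomb repressive complex 2. In mESCs such chromatin is best known at the CpG islands of genes for developmental regulators, which are kept silent or nearly silent. H3K4me3 at these promoters is placed mainly by MLL2, a COMPASS methyltransferase. DPPA2 and DPPA4 are small DNA-binding proteins of the early embryo and of pluripotent cells, which bind each other and are found at many CpG-rich promoters.

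The values are levels in log2 RPM per 1 kb of region (reads scaled to the size of the library and divided by the length of the region). All 26544 regions that the authors list for WT K4-K27 were tested, together with the 11179 of the 28227 DKO regions that overlapped no WT region, 37723 in all. The authors list these regions for the same clones, so the added regions are high in DKO in part by selection, and the WT regions are high in WT in part by selection. The K4-K27 libraries had 9242970 to 12987113 reads. Across regions the levels of the WT clones correlated with r = 0.71 and those of the DKO clones with r = 0.76, and the 4 pairs of a WT with a DKO clone gave r from 0.29 to 0.49. Genes active in mESCs (Pou5f1, Nanog, Sox2, Esrrb, Zfp42 and Tfcp2l1) all had a promoter region here, and none of the 6 was called. The region at the Dppa2 promoter was at 1.88 and 1.35 in WT and 2.13 and 1.98 in DKO, and Dppa4 had no promoter region. Where the deletions lie was not looked at here, so these levels do not test the knockout.

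The sequences below show the kind of DNA at the regions that the results turn on, with CG dinucleotides in capitals. Pdzrn4, Thbs4 and Sstr4 are promoters where K4-K27 fell, the stretches near Zdbf2 and Fndc3a lie in distal regions where it fell, and Pou4f1 is a promoter where it was not called. They are taken from RefSeq on GRCm38.p6, each 300 bases long and written 5′ to 3′. The promoter windows run from 250 bases before to 50 after the start site, and the distal windows are the 300 bases with the most CG in their region.
Pdzrn4, chr15:92396560-92396859, plus strand: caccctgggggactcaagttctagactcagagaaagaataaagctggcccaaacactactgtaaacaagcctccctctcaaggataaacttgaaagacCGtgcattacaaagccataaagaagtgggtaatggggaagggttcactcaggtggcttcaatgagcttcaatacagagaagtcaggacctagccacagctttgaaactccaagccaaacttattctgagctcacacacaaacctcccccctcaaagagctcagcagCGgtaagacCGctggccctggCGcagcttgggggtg
Thbs4, chr13:92794769-92795068, minus strand: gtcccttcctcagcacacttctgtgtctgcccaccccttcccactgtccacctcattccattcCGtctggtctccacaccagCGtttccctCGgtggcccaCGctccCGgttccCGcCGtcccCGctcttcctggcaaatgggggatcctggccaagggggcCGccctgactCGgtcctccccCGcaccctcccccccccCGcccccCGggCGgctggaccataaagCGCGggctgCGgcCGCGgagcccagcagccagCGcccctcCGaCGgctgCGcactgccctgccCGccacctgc
Sstr4, chr2:148395127-148395426, plus strand: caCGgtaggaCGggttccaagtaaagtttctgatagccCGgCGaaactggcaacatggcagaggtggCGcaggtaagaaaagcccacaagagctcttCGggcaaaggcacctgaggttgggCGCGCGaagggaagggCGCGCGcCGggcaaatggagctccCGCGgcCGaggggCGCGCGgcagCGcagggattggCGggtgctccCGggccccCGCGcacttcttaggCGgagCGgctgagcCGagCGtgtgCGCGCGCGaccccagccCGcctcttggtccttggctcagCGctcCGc
near Zdbf2, chr1:63309295-63309594, plus strand: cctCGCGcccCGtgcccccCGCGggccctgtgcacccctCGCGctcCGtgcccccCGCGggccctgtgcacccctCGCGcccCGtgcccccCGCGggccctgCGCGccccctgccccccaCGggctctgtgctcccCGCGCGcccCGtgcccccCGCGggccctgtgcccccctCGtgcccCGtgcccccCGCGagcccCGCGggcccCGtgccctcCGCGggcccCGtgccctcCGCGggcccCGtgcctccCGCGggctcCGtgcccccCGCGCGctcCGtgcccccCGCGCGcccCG
near Fndc3a, chr14:72532166-72532465, plus strand: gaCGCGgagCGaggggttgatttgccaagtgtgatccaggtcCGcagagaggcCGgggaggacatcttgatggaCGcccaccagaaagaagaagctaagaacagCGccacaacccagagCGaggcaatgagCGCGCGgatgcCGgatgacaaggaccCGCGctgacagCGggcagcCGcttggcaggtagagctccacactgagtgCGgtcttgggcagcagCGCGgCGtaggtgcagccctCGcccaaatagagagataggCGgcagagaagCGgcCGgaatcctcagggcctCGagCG
Pou4f1, chr14:104467950-104468249, minus strand: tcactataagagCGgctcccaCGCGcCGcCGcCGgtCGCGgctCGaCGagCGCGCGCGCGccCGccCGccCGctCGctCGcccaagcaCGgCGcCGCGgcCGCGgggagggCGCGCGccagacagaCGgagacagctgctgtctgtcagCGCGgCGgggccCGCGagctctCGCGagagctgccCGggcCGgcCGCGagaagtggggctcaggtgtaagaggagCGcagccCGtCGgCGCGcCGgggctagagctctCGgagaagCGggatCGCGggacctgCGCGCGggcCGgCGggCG
The number of CG dinucleotides, a motif that reads the same on both strands, is 4 for Pdzrn4, 24 for Thbs4, 35 for Sstr4, 57 for Pou4f1, 48 near Zdbf2 and 26 near Fndc3a. Of all 32851 RefSeq promoter windows of this length, 94.6% hold at least 1 CG and 43.5% hold 10 or more.

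K4-K27 signal fell at 741 of the 37723 regions in DKO, 1.96% of those tested, and rose at 35, 0.0928%. The one-sidedness depended on the clones in the fit, as there were 507 lower and 699 higher regions without DKO clone 43, 394 and 369 without DKO clone 53, 860 and 344 without WT clone 57, and 1073 and 254 without WT clone 58. A region was called in limma at a log2 difference (mean of DKO minus mean of WT) above 1 in either direction with a Benjamini-Hochberg adjusted p under 0.05. At an unadjusted p under 0.05 there were 4788 lower and 3484 higher regions. The counts of called regions also moved with the variance model. They were 2897 lower and 2214 higher without the variance trend. With a spread shared by 8 libraries they were 3101 and 1483, and with one shared by 16 libraries 4311 and 3038. Over all regions the median log2 difference was -0.01. The called falls were large, with a median log2 difference of -3.48 (quartiles -4.38 and -2.75) and a range from -1.96 to -7.00. Without the threshold on the log2 difference the count stayed at 741, so smaller falls did not reach a call. The size of the called falls is therefore in part set by what could be detected with 2 clones of each genotype. The same regions held a median of 225 reads in the WT clones together and 29 in the DKO clones together. With the 75 regions that had 0 reads in DKO set to a floor of 3 reads over the group, the median was -3.23.

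**Figure D1:**
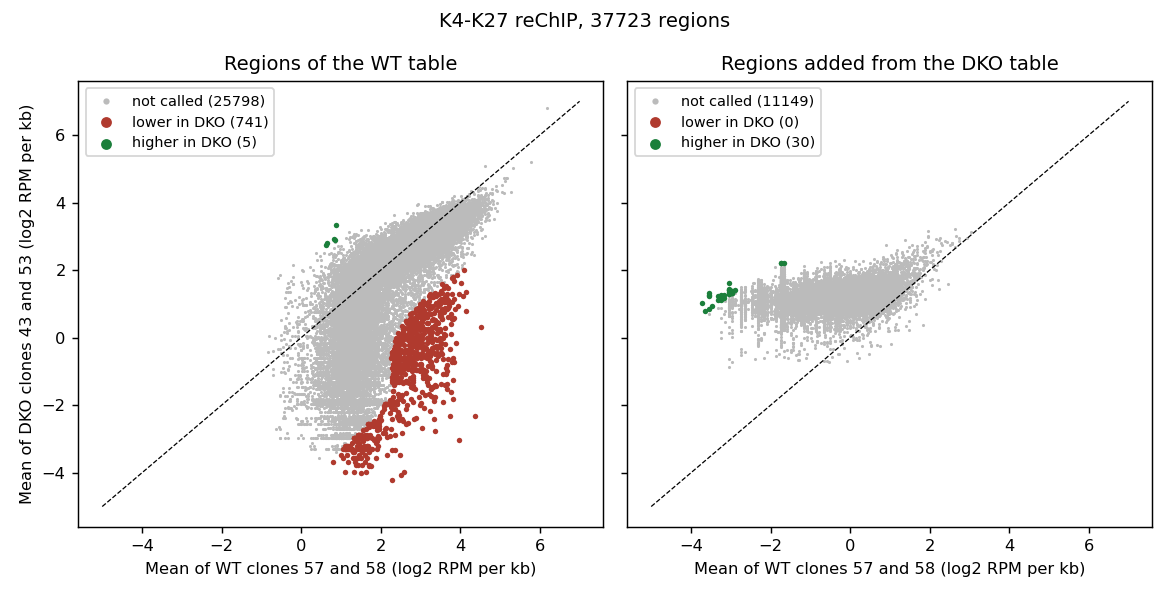
Mean K4-K27 level of DKO clones 43 and 53 (vertical) against that of WT clones 57 and 58 (horizontal), in log2 RPM per kb, one point per region, with regions of the WT table on the left and regions added from the DKO table on the right, and a dashed line of equal levels. The 741 lower regions lie well below the line and are all in the WT table, and 30 of the 35 higher regions are among those added.

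At 740 of the 741 lower regions both DKO clones were below both WT clones, an order that was also found at 23.2% of all regions tested. The exception was the region at the start of Airn, the antisense RNA of the imprinted Igf2r locus, at 3.25 and 2.72 in WT and at 3.04 in DKO clone 43 and -1.31 in DKO clone 53. All 741 were in the WT table and none among the added regions, where limma gave 0 lower also at an unadjusted p under 0.05 and voom on reads gave 0 as well. Of the 741, 657 overlapped no region listed for DKO, and of all 26544 WT regions 9170 overlapped none. The median level over the 741 was 2.97 in WT clone 57 and 2.48 in WT clone 58, and -0.66 in DKO clone 43 and -0.52 in DKO clone 53. IgG–IgG had a median of -0.22 there. At 314 of the regions both DKO clones were at or below the IgG–IgG level, and at every one of the 741 both WT clones were above it, which follows in part from the choice of regions, since all 741 were listed for the WT clones. A further 1748 WT regions had a log2 difference below -3 without a call, with a median of 25 reads in the WT clones.

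The calls can also be read over a set of regions that was not chosen on the clones, the 24540 K4-K27 regions that the authors list for E14 cells. E14 is the line without the knockout from which the clones derive. These regions are thus still chosen for signal in cells of WT type, which favours lower over higher calls. There, 847 regions (3.45%) were lower in DKO and 126 (0.513%) higher, with a median log2 difference of -0.11 over all. Promoters made up 437 of these lower regions and 16 of the higher ones. Of the 741 lower regions, 664 (89.6%) overlapped an E14 region, and 512 overlapped one that was itself lower. Of the 35 higher regions, 4 overlapped an E14 region.

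The lower regions lay both at promoters and away from them. Promoter regions, those within 1.5 kb of a RefSeq start site, gave 369 of the 741 lower regions, 2.42% of the 15246 tested. A further 117 (1.74% of 6714) lay farther than that but within 10 kb of a start site. The remaining 255 (1.62% of 15763) lay over 10 kb away, 129 of them inside a gene (1.94% of 6641) and 126 between genes (1.38% of 9122). Counted over the WT regions alone, these same calls were 2.59% of promoter and 3.03% of other regions, and a fit to the WT regions alone called 2.35% and 1.89%, so that the order depended on the regions in the fit. It depended on the clones and the variance model too, with 1.01% of promoter and 3.14% of other regions lower without WT clone 57, 1.99% and 3.42% without WT clone 58, 2.92% and 10.9% without the variance trend, 5.06% and 10.4% with a spread shared by 8 libraries, and 5.65% and 15.3% with one shared by 16. The median log2 difference was -4.24 over the 372 called non-promoter regions and -3.07 over the 369 called promoter regions. The former had a lower median WT level, 2.41 against 2.98, and both medians are over called regions only, so that they do not compare the depth of the fall. In DKO the lower promoter regions kept a median level of -0.13 and the non-promoter regions one of -1.71.

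The lower regions away from promoters were long and rich in CpG for their kind. They held a median of 3.67 CpG per 100 bp and were 1350 bp wide, and the non-promoter regions of the WT table that were not called held 1.75 CpG per 100 bp and were 750 bp wide. Promoter regions went the other way, with 3.87 CpG per 100 bp at the lower ones and 4.39 at the others of the WT table, and the same median width of 1950 bp. Divided into 5 classes of equal size by CpG density over the WT table, non-promoter regions were lower in 0.845%, 1.46%, 5.75%, 11.1% and 10.5% from the poorest to the richest. Promoter regions were lower in 0%, 1.69%, 4.83%, 3.17% and 1.01%, most often in the middle class. The median WT level also went up along these classes, from 1.27 to 2.71 outside promoters and from 1.25 to 3.40 at promoters. So did the median width, from 450 to 1650 bp outside promoters and from 600 to 2100 bp at promoters, and wider regions collect more reads. The parts of level and width in these shares were not tested. In the RefSeq windows, 299 of the 398 genes with a lower promoter region could be matched. Their 393 promoters held a median of 12 CG dinucleotides, and the 15334 promoters of the tested genes that were not lower held 20.

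**Figure D2:**
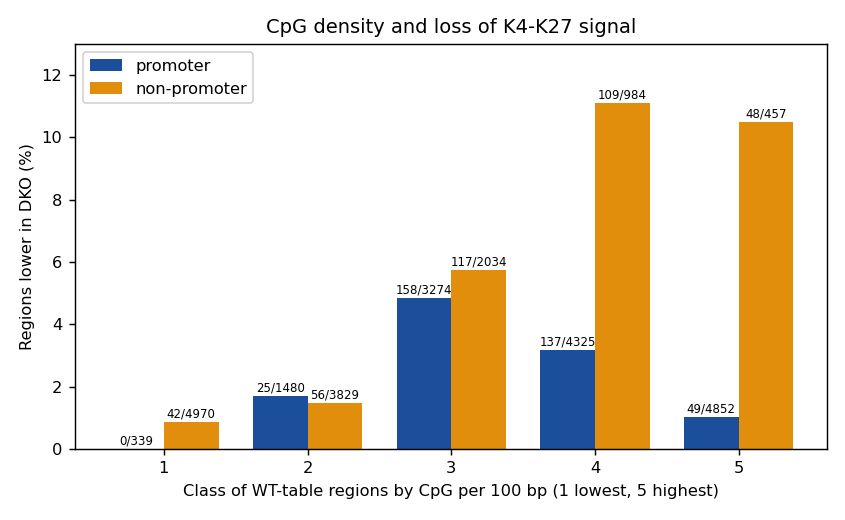
Share of WT-table regions called lower in DKO (vertical, in percent) by class of CpG per 100 bp (horizontal, 5 classes of equal size over the table, 1 the poorest), for promoter and non-promoter regions. Outside promoters the share goes from 0.845% in the poorest class to 10.5% in the richest, and at promoters it is largest in the middle class at 4.83%.

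The 12 promoter regions with the largest fall belonged to genes of varied function. Those of Fem1al, Sult2a4 and Gm14057 belong to genes with close copies elsewhere, and although reads with a mapping quality of 20 or less were left out, their values may be shared between copies. Pdzrn4, which encodes a PDZ and RING finger protein, had a region at chr15:92396401-92398200 with levels of 4.08 and 3.40 in WT clones 57 and 58 and of -1.08 and -3.55 in DKO clones 43 and 53. The log2 difference was -6.05 ± 0.93 (SE) with a limma adjusted p of 1.72e-07. It is the promoter whose sequence above holds 4 CG in the 300 bases around the start, and the whole region holds 4.28 CpG per 100 bp.

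The region of Thbs4, for an extracellular matrix glycoprotein, was at 3.50 and 3.19 in WT and at -0.66 and -4.13 in DKO (chr13:92794201-92795550). Its log2 difference was -5.74 ± 1.08 (SE), with an adjusted p of 4.47e-05 in limma. Both DKO clones were below IgG–IgG, at -0.24, and they differed from each other by more than the WT clones did. Esr1, the gene for oestrogen receptor alpha, had its region at chr10:4711651-4713600, at 4.21 and 3.42 in WT and -1.55 and -2.08 in DKO. In reads, 557 in the WT clones stood against 13 in the DKO clones, and the log2 difference was -5.63 ± 0.79 (SE, limma adjusted p = 8.61e-09). Cdcp1, for a transmembrane glycoprotein, was at 3.28 and 2.79 in WT and -1.25 and -4.13 in DKO. At these 4 promoters both WT clones were far above IgG–IgG and both DKO clones below it, as the DKO clones were at or below it at 314 of the 741 lower regions.

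Tshz2, which encodes a zinc finger transcription factor, was at 4.06 and 3.06 in WT, -4.27 in DKO clone 43 and 0.49 in DKO clone 53. The latter is near the IgG–IgG level of 0.47. Me3, for the mitochondrial NADP-dependent malic enzyme, was at 3.70 and 2.80 in WT and at -3.98 and -0.38 in DKO. Svep1, for a secreted matrix protein, was at 4.25 and 3.31 in WT and at -2.25 and -0.96 in DKO, a log2 difference of -5.38 ± 0.76 (SE). On the X chromosome, Gpr101, an orphan G protein-coupled receptor gene, was at 2.91 and 2.14 in WT and at -3.83 and -1.81 in DKO. Otud6a, a deubiquitinase gene also on the X chromosome, had 65 reads in WT and 0 in DKO, so that it was 25.5-fold lower against the floor of 3 reads. Gm14057 had 70 reads in WT and 0 in DKO and was 27.5-fold lower against the same floor. In the 10 other promoters of the 12, reads were left in the DKO clones. Under quantile normalisation the calls of Thbs4 (-5.58), Cdcp1 (-5.57), Tshz2 (-5.33), Me3 (-5.45), Gpr101 (-5.23), Gm14057 and Otud6a were lost although the differences hardly moved. Gm14057 also lost its call without either DKO clone, Otud6a without DKO clone 53 and in the fit to WT regions alone, and Tshz2 with a spread shared by 8 libraries.

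**Figure D3:**
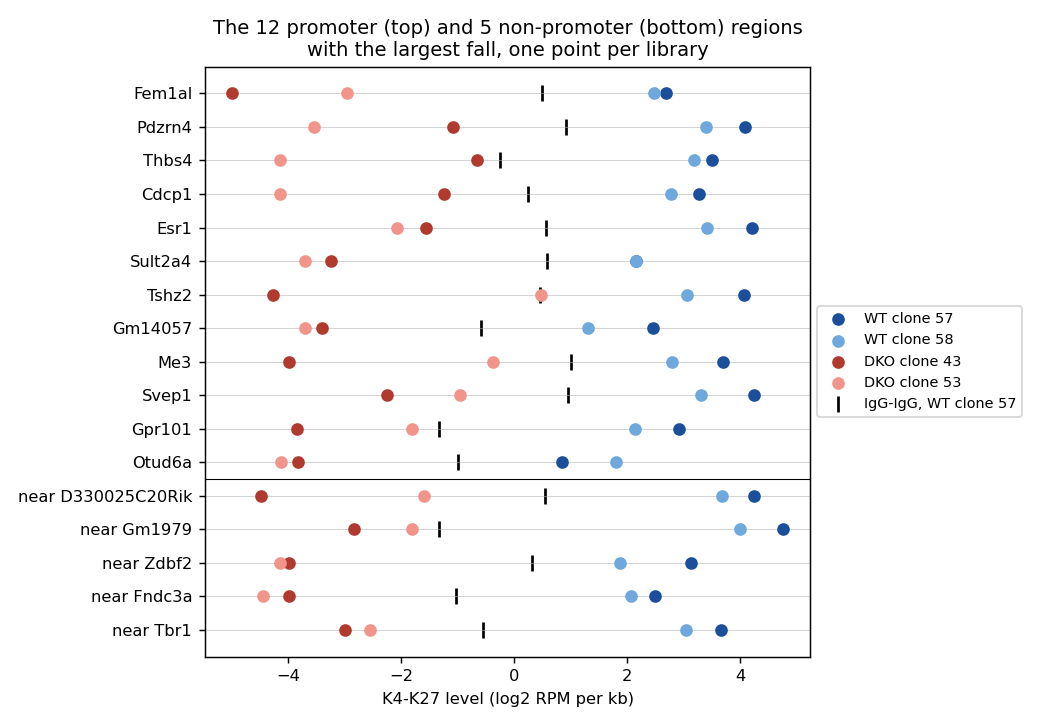
K4-K27 level (horizontal, log2 RPM per kb) in each of the 4 clone libraries at the 12 promoter regions (top) and 5 non-promoter regions (bottom) with the largest fall, one point per library, with the IgG–IgG level of WT clone 57 as a bar. In each of the 17 regions both WT points lie to the right of both DKO points, and DKO clones 43 and 53 lie far apart at Tshz2 and close together at Esr1.

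The 5 non-promoter regions with the largest fall had next to no reads left in DKO. The deepest, 39131 bp from the start of D330025C20Rik, was at 4.26 and 3.68 in WT and at -4.47 and -1.60 in DKO, a log2 difference of -7.00 ± 1.08 (SE, limma adjusted p = 1.9e-07). A promoter region shared by D330025C20Rik and Kcng2 on the same chromosome fell too, by 5.02 on the log2 scale. The region 1824 bp from Gm1979 was at 4.76 and 4.00 in WT and at -2.83 and -1.81 in DKO. Near Zdbf2, an imprinted gene, the region 35582 bp from the start site had 163 reads in WT and 1 in DKO, a ratio of 192 with a 95% exact counting interval from 34.0 upwards. Near Fndc3a the distance was 176903 bp, and 146 WT reads stood against 1 DKO read, a ratio of 172 (interval from 30.4 upwards). Over the whole region they held 7.41 and 4.80 CpG per 100 bp. Counting intervals cover counting error only.

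The fifth region lay 6348 bp from Tbr1, a T-box transcription factor gene of cortical neurons, and was at 3.67 and 3.05 in WT and at -2.98 and -2.55 in DKO. Tbr1 was lower at its promoter as well, where WT levels of 2.64 and 2.68 stood against -0.44 and -1.38, and at another region 9498 bp away with a log2 difference of -4.92. Of the 741 lower regions, 97 had another lower region within 100 kb. No matching share was worked out for the regions tested as a whole, so this count does not show that lower regions lie together. The call at the Tbr1 promoter was lost without WT clone 57 (-3.59) or WT clone 58 (-3.55) and under quantile normalisation (-3.67).

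At the level of genes, 398 of the 16070 genes with a tested promoter region had at least 1 lower (2.48%) and 5 had 1 higher (0.0311%). For 347 of the 398 every promoter region that was tested was lower, and 51 also had one that was not called. Gene lists were read against these shares, and the median of all genes was -0.10. The genes tested include ones such as Gapdh, with total H3K27me3 at -1.88 and -1.64 in WT. In a fit to regions that overlap a K27-K4 region, 5.17% of promoter regions were lower. List shares were not worked out over those regions. Of 35 lists, 13 had no lower member, and no member of any list was called higher. Together 85 of the 398 genes were on a list.

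Genes for neuropeptides and their receptors were lower in the largest share, 12 of the 54 tested (22.2%), with a list median of -1.09. The count was between 10 and 17 under the other scalings of the libraries, and 24 were lower at an unadjusted p under 0.05. Of the 12 calls, 2 were kept without WT clone 57, 8 without WT clone 58, 4 without DKO clone 43 and 6 without DKO clone 53. Sstr4, a somatostatin receptor gene whose promoter sequence is given above, was at 3.88 and 3.79 in WT and at -0.80 and -0.61 in DKO. The WT clones differed by less than the DKO clones did, and both DKO clones were near the IgG–IgG level of -0.81, with a log2 difference of -4.54 ± 0.64 (SE) and a limma adjusted p of 8.61e-09. Avpr1a, a vasopressin receptor gene, was at 3.15 and 3.06 in WT and at -0.02 and -1.13 in DKO. Npbwr1, for a neuropeptide B and W receptor, was at 3.39 and 2.78 in WT and at -0.20 and 0.68 in DKO, and its call was lost without WT clone 57 (-2.54) or DKO clone 43 (-2.40). The 9 other members that were called are named here to complete the list. They are the receptor genes Galr1 (galanin, a log2 difference of -2.87), Nmbr (neuromedin B, -2.95), Rxfp3 (relaxin-3, -2.62), Sstr2 (somatostatin, -2.38), Prlhr (prolactin-releasing hormone, -2.26), Npy2r (neuropeptide Y, -2.96), Tacr3 (neurokinin B, -2.86) and Oxtr (oxytocin, -2.10), and Penk, which encodes the precursor of enkephalins (-2.03). Oxtr kept levels of 1.11 and 0.86 in DKO and Penk 2.22 and 1.32, above the IgG–IgG levels of -0.50 and 0.45.

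Other receptor genes fell too. For amines and acetylcholine, 5 of 38 were lower (13.2%), 2 of which kept their call without WT clone 57. Htr4, a serotonin receptor gene, was at 3.96 and 3.40 in WT and at -0.38 and -0.86 in DKO, with IgG–IgG at -0.44. Htr5b, for another serotonin receptor, had a log2 difference of -4.13 (-3.96 and not called without WT clone 57), the dopamine receptor gene Drd5 one of -3.31 and the muscarinic receptor gene Chrm2 one of -3.56. The nicotinic subunit gene Chrna3 was at 3.50 and 2.98 in WT and at 2.05 and 0.52 in DKO, a smaller fall with an adjusted p of 0.0474 in limma. Among glutamate, GABA and glycine receptors 2 of 42 were lower (4.76%), Grik1 at -2.20 and Grin3a at -2.09. The Grik1 call was lost without WT clone 57 (-1.95) or DKO clone 53 (-1.33) and under quantile normalisation (-2.22), and the Grin3a call without any 1 of the 4 clones (-1.53 to -2.64). The Grik1 and Grin3a calls were also lost without the variance trend. Of the orphan and adhesion G protein-coupled receptors 4 of 60 were lower (6.67%), among them Gpr101 and Gpr26 (-3.73). Of these 4 calls, 1 was kept without WT clone 57, where Gpr26 was not called (-3.45), and 1 under quantile normalisation.

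Of the potassium channel genes 10 of 77 were lower (13%), with a list median of -0.62. Of these, 5 kept their call without WT clone 57 and 4 without DKO clone 53. Kcng2, for a modifying subunit, was at 3.77 and 3.54 in WT and at -1.22 and -1.52 in DKO (log2 difference -5.02 ± 0.74, SE), at the promoter region it shares with D330025C20Rik. Kcnv1, another modifying subunit, was at 3.43 and 3.16 in WT and at 0.19 and -0.82 in DKO, and the sodium-activated channel gene Kcnt1 was at 3.82 and 2.98 in WT and at 0.12 and 0.14 in DKO. No gene of the 32 for sodium and calcium channels was called, although each of the 3 other scalings called 1 lower. Solute carriers were the longest list, with 17 of 270 lower (6.3%) and a median of -0.11, which became 0.03 under quantile normalisation. Of the 17 calls, 7 were kept without WT clone 57, 11 without DKO clone 43 and 7 without DKO clone 53. Slc35f3 was at 4.17 and 3.43 in WT and at -1.37 and -0.04 in DKO. Slc22a3, for an organic cation transporter, was at 3.58 and 2.96 in WT and at -0.48 and -2.55 in DKO, and its call was lost without WT clone 57 (-4.48). Slc10a4 had a log2 difference of -3.63 at its promoter and one of -4.58 at a region 6047 bp from the start site. The noradrenaline transporter gene Slc6a2 (-2.58) and the vesicular monoamine transporter gene Slc18a2 (-2.40), chosen after their values were seen, fell as well.

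**Figure D4:**
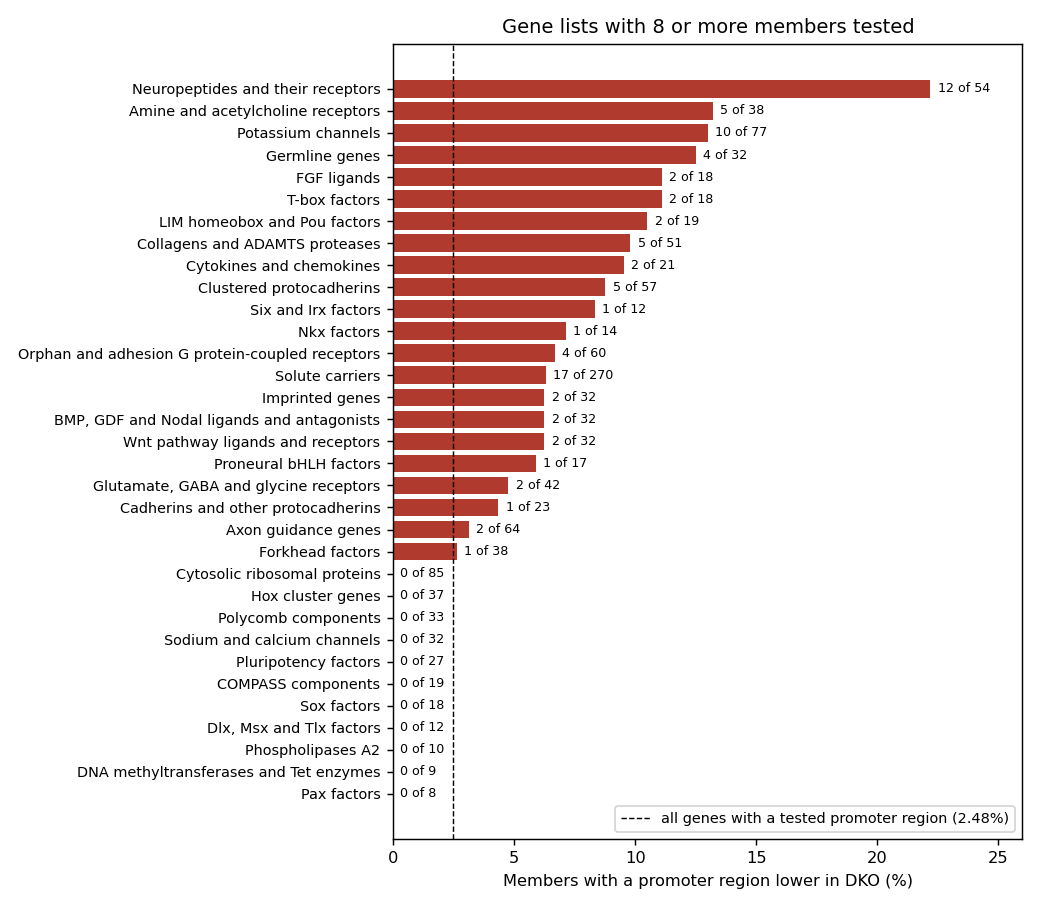
Share of the members of each gene list with a promoter region lower in DKO (horizontal, in percent), for lists with 8 or more tested members, with a dashed line at the 2.48% of all genes tested. Neuropeptides and their receptors stand highest at 22.2%, and lists such as Hox cluster genes and cytosolic ribosomal proteins are at 0.

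Germline genes, many of which are silenced by DNA methylation in somatic cells, were lower in 4 of 32 cases (12.5%). Tdrd6, for a tudor protein of male germ cells, was at 3.96 and 3.32 in WT and at -1.0 and -0.82 in DKO. Sycp1 (-3.45) and Syce1 (-3.08), both for parts of the synaptonemal complex, and the germ cell RNA helicase gene Ddx4 (-4.16) were the others. Of the 4 calls, 1 was kept without WT clone 57, 2 without WT clone 58 and 3 without DKO clone 53. Without WT clone 57 the Sycp1 call was lost (-2.86), and the Syce1 call was lost without either WT clone (-2.75 and -3.41) or without DKO clone 53 (-2.49). Under quantile normalisation 1 germline gene was called. Collagens and ADAMTS proteases had 5 of 51 lower (9.8%), of which 2 kept their call under quantile normalisation, 2 without WT clone 57, 3 without WT clone 58 and 2 without DKO clone 53. Col16a1 was at 3.00 and 3.05 in WT and at -1.18 and -2.70 in DKO (not called under quantile normalisation, at -4.88), Col19a1 had a log2 difference of -3.44, and Col4a3 and Col4a4, which share a promoter region, one of -3.69, whose call was lost without WT clone 57 (-3.57), WT clone 58 (-3.81) or DKO clone 53 (-2.61). Of the clustered protocadherins, cell surface proteins whose combinations tell single neurons apart, 5 of 57 were lower (8.77%), all of the beta cluster, and 1 under quantile normalisation. Of the 5 calls, none was kept without WT clone 57, 1 without WT clone 58 and 1 without DKO clone 53. Pcdhb21 was at 3.10 and 2.99 in WT and at -0.20 and -1.64 in DKO, and was not called without WT clone 57 (-3.91). These genes are near-copies of each other and lie close together, so reads could be assigned to the wrong member.

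Each list of secreted signals had 2 lower members, read against the 2.48% of all genes. Bmp3 was at 3.42 and 3.15 in WT and at -1.66 and -0.15 in DKO, and was 1 of the 2 lower among 32 BMP, GDF and Nodal ligands and antagonists (6.25%). Fgf20 (-2.83) and Fgf14 (-2.54) were 2 of the 18 FGF ligands (11.1%), and Wnt16 (-2.85) and Wnt2 (-2.29) were 2 of 32 for the Wnt pathway (6.25%). Slit1 (-2.64) and Sema6d (-2.42) were 2 of 64 axon guidance genes (3.12%), and Csf1 and Cxcl5 (-2.59) 2 of 21 cytokines and chemokines (9.52%). Csf1, the growth factor of macrophages, was at 3.57 and 2.97 in WT and at -0.14 and 0.04 in DKO, and its log2 difference was -3.32 ± 0.63 (SE, limma adjusted p = 6.28e-05). Cdh20 (-2.74) was 1 of 23 cadherins and other protocadherins (4.35%). Without WT clone 57 the calls of Fgf14, Wnt16, Wnt2, Slit1, Sema6d, Cxcl5 and Cdh20 were lost, at log2 differences from -2.00 to -2.62. Without DKO clone 53 those of Fgf14, Wnt16, Wnt2, Slit1, Cxcl5 and Cdh20 were lost (-2.28 to -2.74), without DKO clone 43 those of Fgf14, Wnt2, Slit1 and Sema6d (-1.76 to -2.54), and without WT clone 58 that of Wnt2 (-2.29). Bmp3, Fgf20 and Csf1 were called whichever clone was left out. Under quantile normalisation the calls of Wnt2 (-2.37), Sema6d (-2.21) and Cxcl5 (-2.67) were lost, and without the variance trend those of Wnt2 and Sema6d.

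Of the genes for developmental transcription factors, over 11 lists with 198 tested genes, 8 were lower, 4.04% against 2.48% of all genes, and the median log2 difference was -0.49. For comparison, 5.17% of promoter regions were lower in the fit to regions that overlap a K27-K4 region. The shares differed between lists, with 2 of 18 T-box factors (11.1%), 2 of 19 LIM homeobox and Pou factors (10.5%), 1 of 12 in the list that holds the Irx factors (8.33%), 1 of 14 Nkx factors (7.14%), 1 of 17 proneural bHLH factors (5.88%) and 1 of 38 forkhead factors (2.63%) lower. Hox cluster genes (37 tested), Sox factors (18), Gata factors (5), Pax factors (8) and Dlx, Msx and Tlx factors (12) had none lower. Their list medians lay between -0.36 and -0.54. Over all 13 lists with none lower, 295 members in total, limma gave 0 calls, 9 members were lower and 3 higher at an unadjusted p under 0.05, and voom on reads called 0. Scaling to ribosomal protein promoters called 6 of them lower, centring 3 and quantile normalisation 2, with 1 Sox factor under each of the latter.

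Among the 8 that fell were Olig3, Pou3f4, Lhx3, Tbx4, Tbr1, Foxi2 and Irx6. Olig3, a basic helix-loop-helix factor gene of the dorsal neural tube, was at 3.82 and 3.32 in WT and at 0.39 and -1.66 in DKO (log2 difference -4.21 ± 0.66, SE). Pou3f4, a POU factor gene on the X chromosome, was at 2.30 and 1.99 in WT and at -2.78 and -3.08 in DKO. Tbx4, a hindlimb factor gene, was at 2.80 and 2.65 in WT, -1.34 in DKO clone 43 and 0.65 in DKO clone 53. Foxi2 had a log2 difference of -3.32, Lhx3 one of -2.17 and Irx6 one of -2.05. Olig3 and Pou3f4 were called whichever clone was left out. Under quantile normalisation 3 of the 8 calls were kept, and those of Pou3f4 (-4.90), Lhx3 (-2.22), Tbx4 (-3.06), Tbr1 (-3.67) and Foxi2 (-3.41) were lost. The Tbx4 call was lost without WT clone 57 (-3.0), WT clone 58 (-3.15) or DKO clone 43 (-2.08) and with scaling to ribosomal protein promoters (-3.16), and the Foxi2 call without WT clone 57 (-3.25), WT clone 58 (-3.39) or DKO clone 53 (-2.84). The Irx6 call was lost without WT clone 57 (-1.60), DKO clone 43 (-2.48) or DKO clone 53 (-1.61), and the Lhx3 call without any 1 of the 4 clones (-1.88 to -2.45). The Lhx3 and Irx6 calls were lost without the variance trend as well.

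By contrast, Pou4f1, a sensory neuron factor gene whose CpG-dense promoter is given above, was at 3.97 and 3.05 in WT and at 3.64 and 2.75 in DKO. The genotypes overlapped, and the log2 difference was -0.31 ± 0.63 (SE, limma adjusted p = 0.857). Klf4, a pluripotency factor gene, was at 3.96 and 3.48 in WT and at 3.66 and 3.06 in DKO, and Tlx1, a homeobox gene, was at 2.98 and 2.90 in WT and at 2.60 and 2.09 in DKO, without a call. In K27-K4 the same Klf4 region was called lower, with 3.65 and 3.04 in WT and 1.63 and 1.81 in DKO (limma adjusted p = 0.0313). At Gapdh, a housekeeping gene, WT levels of 3.06 and 2.75 stood against 3.39 and 2.66, with IgG–IgG at 0.88. At the same Gapdh region the WT clones were at -0.18 and 0.09 in K27-K4 and at -1.88 and -1.64 in total H3K27me3. Colgalt2 was at 4.08 and 3.74 in WT and at 3.73 and 2.68 in DKO, and Rnf149 and Meis2 had log2 differences of -0.32 and 0.09. A p that misses the threshold does not show that these levels were equal, and the standard error at Colgalt2 was 0.65.

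Fam163a was lower, with 4.26 and 3.29 in WT and 0.12 and 0.69 in DKO. Promoter regions of the same gene could differ in whether they were called, and the difference between them was not tested. Lmo1, for a LIM-only protein, had a promoter region that fell from 4.19 and 3.68 to 0.82 and 1.09, and another promoter region with a log2 difference of -1.34 that was not called. Of the imprinted genes 2 of 32 were lower, Airn and Gnas (-1.96). Without DKO clone 53 both calls were lost, with log2 differences of 0.06 for Airn and -1.08 for Gnas. Both were also lost without WT clone 57 (-1.85 and -1.79), under quantile normalisation (-2.36 and -1.99) and without the variance trend. The Airn call was lost with each other scaling and each shared spread too, and the Gnas call without WT clone 58 (-2.14), with voom, without the lowest quartile and in the WT table alone. Gnas was at 2.47 in DKO clone 43 and at 0.71 in DKO clone 53, against 3.73 and 3.38 in WT.

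Further lower genes outside the lists were chosen after their values were seen, and no count of their families was made. They include the prostaglandin receptor genes Ptgdr (-4.72), Ptger1 (-3.29) and Ptgfr (-3.10) and Ptgs1, the gene for cyclooxygenase 1 (-2.51). Gucy1a1 (-3.49) and Gucy1b1 (-3.63), which encode the subunits of soluble guanylate cyclase, the nitric oxide receptor, were both lower. So were the factor genes Twist2 (-4.48), Tcf21 (-4.23), Vsx1 (-3.32), Myod1 (-2.61) and Pdx1 (-2.44), which the lists above did not hold. Twist2 was at 3.84 and 3.50 in WT and at -1.40 and -0.21 in DKO.

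The 35 higher regions, a number that was between 254 and 699 when 1 clone was left out, lay mostly away from promoters. Only 4 were promoter regions, 10 lay within 10 kb of a start site and 21 farther away. Of the 35, 30 were added regions of the DKO table. There were 0 WT reads at 16 of the 35, 1 to 3 at 14 and at most 39 at the other 5, against 34 to 185 DKO reads with a median of 48. A region 12253 bp from Ppp3r1 rose, with 0 reads in WT and 61 in DKO, at least 17.3-fold higher against the floor of 3 reads over the group. Regions near Mapk6 (63 DKO reads, 17.8-fold higher against that floor, interval from 14.1 upwards), Cdkl2 (58), 4930484H19Rik (58) and Nes (54) also had 0 WT reads. In the order Ppp3r1, Mapk6, Cdkl2, 4930484H19Rik and Nes, these 5 regions held 0.57, 0.86, 0.67, 2.25 and 0.40 CpG per 100 bp. Under quantile normalisation all 5 calls were lost, as was every one of the 35. Without WT clone 58 those near Ppp3r1, Mapk6, Cdkl2 and 4930484H19Rik were lost, and the one near Nes was lost in a fit to regions that overlap a K27-K4 region. Of the 35, 9 were called with libraries centred on their medians, 8 with scaling to ribosomal protein promoters and 13 with voom.

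Of the 4 promoter regions that rose, that of the histone genes H2ac19 and H3c15 had 1 WT read and 49 DKO reads, a ratio of 41.6 with a 95% exact counting interval from 7.12 upwards, in a cluster of near-identical genes. The others were in the WT table. Fundc1, for a mitophagy receptor, was at 2.03 and -0.27 in WT and at 3.86 and 2.81 in DKO (log2 difference 2.46 ± 0.60, SE, limma adjusted p = 0.00463). Rsph4a, for a radial spoke protein of cilia, was at -0.06 and 1.37 in WT and at 3.00 and 2.62 in DKO, and the kinase gene Pdpk1 was at 1.94 and -0.69 in WT and at 3.28 and 2.21 in DKO. The WT clones differed from each other by more than 1 at these 3 promoters, although the groups did not overlap. The call was lost for Fundc1 without WT clone 58 (log2 difference 1.31) or DKO clone 43 (1.93), for Rsph4a without WT clone 57 (1.44), DKO clone 43 (1.96) or DKO clone 53 (2.34), and for Pdpk1 without WT clone 58 (0.80), DKO clone 43 (1.58) or DKO clone 53 (2.65). The H2ac19 and H3c15 call was lost without either WT clone, at 4.49 without clone 57 and 4.42 without clone 58. All 4 promoter calls were also lost under quantile normalisation and with voom on reads, and those of Fundc1, Rsph4a and Pdpk1 without the variance trend and with a spread shared by 8 libraries. None of the 35 was called higher in K27-K4, total H3K4me3 or total H3K27me3 at the same regions.

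The other ChIPs of the same clones were then read at the same regions, which these libraries were not used to call lower. K27-K4, the reChIP with the antibodies in the reverse order, was lower at 1537 of the 37723 regions (4.07%) and higher at 163 (0.432%). Of the 741 regions lower in K4-K27, 594 (80.2%) were also lower in K27-K4, with a median log2 difference of -2.52. Total H3K4me3, from chromatin set aside after the first ChIP, was lower at 855 regions (2.27%) and higher at 28 (0.0742%), and was lower at 380 (51.3%) of the 741, with a median of -2.14. With libraries centred on their medians the H3K4me3 counts were 1822 lower and 822 higher. Total H3K27me3 was lower at 267 regions (0.708%) and higher at 60 (0.159%), and was lower at 183 (24.7%) of the 741, with a median of -1.12. For H3K27me3 1 of the 741 was called the other way, and for K27-K4 and H3K4me3 none was. The difference was negative at 702, 715 and 654 of the 741 in K27-K4, H3K4me3 and H3K27me3.

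Split by the totals, 251 of the 741 regions were called lower in H3K4me3 only, 54 in H3K27me3 only, 129 in both and 307 in neither. The paper describes these in-line totals as noisier than the reChIPs, with little starting material. The difference was negative at 715 of the 741 in H3K4me3 and at 654 in H3K27me3. The split is thus one of calls and does not show that a mark without a call was kept. All 3 other ChIPs were lower at 129 regions and none of them at 113. The medians over the 741 fell in K27-K4 from 3.35 and 2.59 in WT to 0.11 and 0.25 in DKO, in H3K4me3 from 2.15 and 1.00 to -0.78 and -0.43, and in H3K27me3 from 1.61 and 0.99 to -0.18 and 0.20. In H3K4me3 WT clones 57 and 58 thus stood further apart than in the reChIPs. The gap was not particular to these regions. Over all regions tested the H3K4me3 medians were 1.75 and 0.85 in WT clones 57 and 58, and 1.39 and 1.11 in DKO clones 43 and 53. At Sstr4 the log2 differences were -5.62 in K27-K4, -3.13 in H3K4me3 and -2.48 in H3K27me3, and at Pdzrn4 they were -5.76, -3.05 and -2.30. At Cxcl5 they were -2.10, -1.90 and 0.00, and at Gnas -3.13, -0.61 and -2.26. The regions listed by the authors moved along, as 80.0% of the 741 overlapped a WT H3K4me3 region and 6.07% a DKO one, and 55.1% overlapped a WT H3K27me3 region and 17.3% a DKO one. Over the whole WT table these shares were 73.0% and 63.3% for H3K4me3, and 23.1% and 24.4% for H3K27me3.

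**Figure D5:**
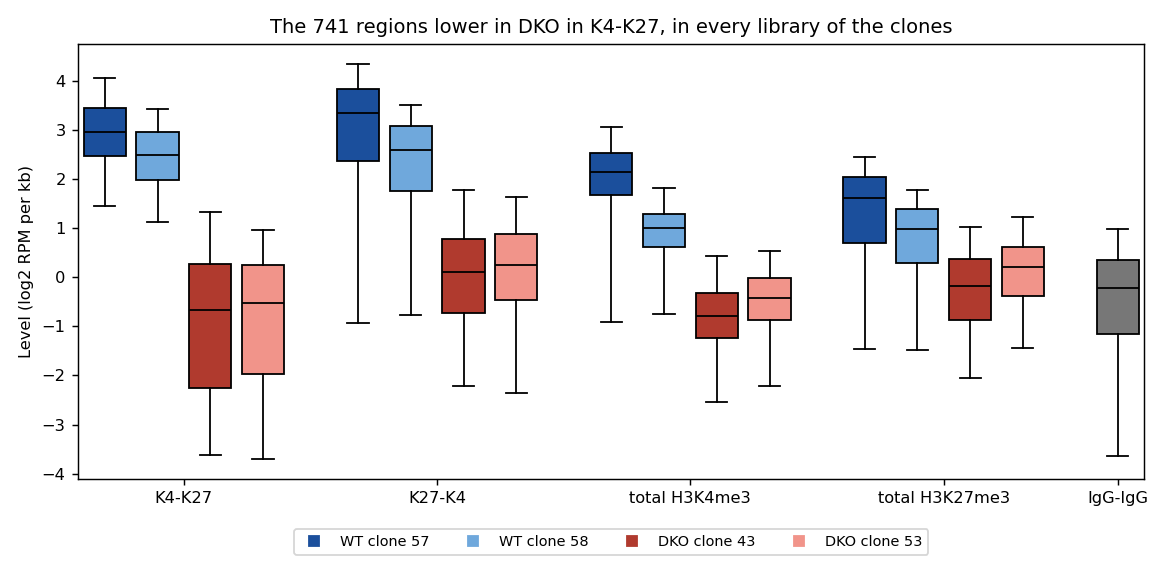
Levels (vertical, log2 RPM per kb) of the 741 regions lower in K4-K27, in every library of the clones, by ChIP (horizontal), with boxes for the quartiles, a line for the median and whiskers from the 5th to the 95th percentile over regions. WT medians lie above DKO medians in all 4 ChIPs, with the widest gaps in the reChIPs and the narrowest in total H3K27me3, and IgG–IgG of WT clone 57 has a median of -0.22.

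Whether the fall differed between the 2 orders of antibodies was tested as an interaction of genotype and orientation over the 8 reChIP libraries. Limma called 0 of 37723 regions (0%), with a smallest adjusted p of 0.194, while 3796 had an unadjusted p under 0.05. Over the 741 regions the median of the interaction was 0.70, a smaller fall in K27-K4, but these regions were chosen in K4-K27. Of them, 115 had an unadjusted p under 0.05.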

How the data were processed

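K4-K27, K27-K4, total H3K4me3 and total H3K27me3 were profiled in 2 WT and 2 DKO clones, with 1 IgG–IgG library. The authors trimmed reads with Trim Galore 0.6.6, aligned them to mm10 (GRCm38.p6) with BWA 0.7.13, marked duplicates with Picard 2.6.0 and quantified alignments with a mapping quality over 20, extended by 200 bp, in SeqMonk with duplicates kept. The deposited values are log2 RPM per 1 kb of region, without subtraction of IgG–IgG. The authors called peaks with EPIC2 against IgG–IgG. All edges of the table regions lie on a grid of 150 bp, which is not the bin size stated for EPIC2, so how these regions were made remains unclear. Each table also holds columns that match no sample of the series, 32 in all, which were not used. All values of up to 20 reads lay within 0.05 of a whole read (100%), with 0 reads entered as 0.9, so reads could be recovered. Depths were 9242970 and 10727500 reads for WT clones 57 and 58, and 10542764 and 12987113 for DKO clones 43 and 53.

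DKO was compared with WT per region with limma 3.58.1 in R 4.3.3 (lmFit, eBayes with trend and robust estimation), with Benjamini-Hochberg adjustment over all regions tested. A count test had been planned for count tables, but log2 values call for limma. Simulated data with 200 regions shifted by 3 log2 units gave 44.5% of them back for K4-K27, with 3 unchanged regions called, and between 56% and 60% for the other ChIPs. Folds from reads are scaled to library totals, with 95% exact intervals. Promoters, gene positions and sequences came from RefSeq on GRCm38.p6. Python 3.11.15 with pandas 2.3.3 and pysam 0.24.0 was used for tables and sequences, and matplotlib 3.10.9 for figures.

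Members and gene lists were chosen with earlier results of these data known. By the rule for named genes, called regions with both DKO clones beyond both WT clones gave the 12 promoter and 5 non-promoter regions with the largest fall and with the largest rise. It added the called members with the 3 smallest adjusted p of each list, or the member with the smallest where none was called, and the loci that the study follows. Only 4 promoter regions rose. Of 18 such loci 16 had a promoter region. Some genes that the rule named are not reported here. Other genes are said to be chosen after their values were seen. Both reChIPs of a clone start from the same cells, so an alternative paired them. Deviations of such pairs from their group means correlated at 0.03 in WT and 0.01 in DKO across regions. Alternatives covered scaling, variance model, recovered reads with voom, filters, thresholds, the libraries and regions in the fit, promoter width and each clone left out.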

Additional observations from a re-analysis of the deposited data

How the results depend on the processing

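Regions lower in DKO numbered 360 under quantile normalisation, 2897 without the variance trend, 3101 with the spread shared by 8 reChIP libraries, 4311 with it shared by 16 libraries, and from 394 (without DKO clone 53) to 1073 (without WT clone 58) when a clone was left out. Of the 741, 740 stayed below WT without DKO clone 53 and all that were tested did so in the other alternatives, but 276 kept their call under quantile normalisation and between 323 and 550 without a clone. Regions higher in DKO numbered 19 with libraries centred on their medians, 7 under quantile normalisation, 2214 without the trend, 19 with voom, 5 without the lowest quartile, 63 where a genotype was at least 1 above IgG–IgG, 1483 and 3038 with shared spreads, 254 (without WT clone 58) to 699 (without DKO clone 43) without a clone, 4 in the WT table alone and 12 over K27-K4 regions. In alternatives chosen after seeing the data there were 126 over E14 regions and 6 with at least 30 reads. Of the 35 reported, 0 kept their call under quantile normalisation, 9 when centred, 8 with ribosomal scaling, 13 with voom and 5 to 28 without a clone. The share of calls that were lower, 95.5% in the fit reported, was 56.7% without the trend, 67.6% and 58.7% with shared spreads and 42.0% to 80.9% without a clone.

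Promoter regions were lower in 4.76% with scaling to ribosomal protein promoters, 5.06% and 5.65% with shared spreads, 5.17% over K27-K4 regions, and 1.01% (without WT clone 57) to 1.99% without a clone, the other low value being 1.34% without DKO clone 53. Other regions were lower in 1.02% when centred, 0.44% under quantile normalisation, 10.9% without the trend, 10.4% and 15.3% with shared spreads, 3.93% over K27-K4 regions, and 0.841% (without DKO clone 53), 1.10% (without DKO clone 43), 3.14% (without WT clone 57) or 3.42% (without WT clone 58) without a clone. Genes numbered 796 with ribosomal scaling, 811 and 902 with shared spreads and 163 (without WT clone 57) to 325 without a clone, with 220 without DKO clone 53. The median of all regions was -0.34 in the WT table, -0.22 over K27-K4 regions and -0.32 to 0.27 without a clone. Centring gave 1822 lower and 822 higher regions in H3K4me3 and 521 and 37 in H3K27me3. With the clone as a block, pairing its reChIP libraries, the interaction had 0 calls (4548 at an unadjusted p under 0.05, smallest adjusted p 0.205), and centred it had 0 (3683). Airn moved between -4.29 (without DKO clone 43) and 0.055 (without DKO clone 53). Of 1174 values of named lower regions under alternatives 113 lost their call with the same sign and 1 changed sign (Airn), and of 142 of higher regions 40 lost their call. The cause was not tested. A clone left alone in its genotype was assumed to vary like the others.

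Lower calls came where WT clones had at least 26 reads together, and the part of depth in the calls was not tested.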
